A study of Mus musculus with 23 samples.

Results

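Chromatin accessibility of mouse maxillary mesenchyme was compared between embryonic day 12.5 (E12.5) and E10.5, the latest and earliest of the 3 stages studied. The data were lists of open regions, called peaks, from ATAC-seq, in which a transposase cuts DNA where it is not packed by nucleosomes. Peaks of the 3 E12.5 lists and the 3 E10.5 lists that shared at least 1 bp were merged on chromosomes 1 to 19 and X, which gave 90933 regions. A region was taken as gained if all 3 E12.5 lists and no E10.5 list called it, and as lost if all 3 E10.5 lists and no E12.5 list called it. There were 565 gained and 367 lost regions, together 932 of the 90933.

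All embryos were wild-type C57BL/6 mice with no treatment. The prominences were dissected at E12.5, E11.5 or E10.5, the ectoderm was peeled off after digestion with Dispase II, and around 50000 mesenchymal cells entered each library. Each stage had 3 samples. The E12.5 lists were built from 2, 4 and 2 sequenced runs and the E10.5 lists from 2, 4 and 4. The labels do not say how many embryos or litters a sample holds, so the spread between samples may be partly technical.

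The maxillary prominence is a swelling of the embryonic face that forms the upper jaw, the cheek and the secondary palate, and its mesenchyme descends mostly from the cranial neural crest. Open chromatin marks promoters, which lie at gene starts and are often open in many cell types, and enhancers, which lie farther away and are more often open in particular tissues or stages. Promoters of broadly used genes are typically rich in CpG dinucleotides and carry sites for general factors such as SP1, NF-Y, NRF1 and members of the ETS family.

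Most lost regions lay at gene starts, so the promoter sequences under the lost regions with the highest ranks are shown. Regions were ranked by the mean, over the 3 lists that call them, of the percentile of the peak's −log10 q within its list. Each window is the RefSeq promoter on GRCm38.p6, from 250 bases before to 50 bases after the gene start, read 5′ to 3′ on the strand of the gene. Capitals mark matches, on either strand, to CCAAT (the NF-Y box), GGGCGG (the GC box bound by SP1), CCGGAA (the ETS core), GCATGCGC (the NRF1 core), TATAAA (the TATA box), TAATTA (a homeodomain site) and TGACGTCA (the CRE palindrome).
Ppm1k (chr6:57535438-57535737, minus strand): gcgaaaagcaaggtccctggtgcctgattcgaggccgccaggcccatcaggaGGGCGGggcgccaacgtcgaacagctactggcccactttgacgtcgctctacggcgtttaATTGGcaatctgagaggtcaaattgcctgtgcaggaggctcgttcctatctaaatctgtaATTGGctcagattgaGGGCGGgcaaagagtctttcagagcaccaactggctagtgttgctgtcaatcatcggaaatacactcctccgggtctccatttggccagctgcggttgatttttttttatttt
Ckap2l (chr2:129297163-129297462, minus strand): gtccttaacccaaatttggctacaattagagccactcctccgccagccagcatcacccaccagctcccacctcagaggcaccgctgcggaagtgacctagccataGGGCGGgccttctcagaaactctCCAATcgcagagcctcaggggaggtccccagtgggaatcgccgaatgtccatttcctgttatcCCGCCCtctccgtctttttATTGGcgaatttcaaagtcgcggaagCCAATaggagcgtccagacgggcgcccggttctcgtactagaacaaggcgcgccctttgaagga
Hook1 (chr4:95967129-95967428, plus strand): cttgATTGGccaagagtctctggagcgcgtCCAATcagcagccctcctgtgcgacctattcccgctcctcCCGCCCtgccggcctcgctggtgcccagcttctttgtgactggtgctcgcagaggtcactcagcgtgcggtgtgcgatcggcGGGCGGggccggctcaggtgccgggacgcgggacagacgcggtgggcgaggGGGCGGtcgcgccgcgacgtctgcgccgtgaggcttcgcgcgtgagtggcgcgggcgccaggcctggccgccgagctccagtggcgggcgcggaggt
Anapc4 (chr5:52833885-52834184, plus strand): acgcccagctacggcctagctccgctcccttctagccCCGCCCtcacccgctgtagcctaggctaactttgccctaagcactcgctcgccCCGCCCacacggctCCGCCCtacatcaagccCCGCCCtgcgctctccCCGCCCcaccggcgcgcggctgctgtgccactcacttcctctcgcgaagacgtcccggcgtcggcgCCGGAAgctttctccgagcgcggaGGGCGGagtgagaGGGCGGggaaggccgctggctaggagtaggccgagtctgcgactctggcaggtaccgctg
Srek1 (chr13:103774559-103774858, minus strand): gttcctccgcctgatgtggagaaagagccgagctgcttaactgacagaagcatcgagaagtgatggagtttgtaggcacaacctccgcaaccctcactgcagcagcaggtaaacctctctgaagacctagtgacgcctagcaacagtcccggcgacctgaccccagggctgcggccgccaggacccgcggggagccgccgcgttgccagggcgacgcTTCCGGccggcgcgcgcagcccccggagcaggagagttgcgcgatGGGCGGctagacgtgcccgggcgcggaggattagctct
Tmx4 (chr2:134644072-134644371, minus strand): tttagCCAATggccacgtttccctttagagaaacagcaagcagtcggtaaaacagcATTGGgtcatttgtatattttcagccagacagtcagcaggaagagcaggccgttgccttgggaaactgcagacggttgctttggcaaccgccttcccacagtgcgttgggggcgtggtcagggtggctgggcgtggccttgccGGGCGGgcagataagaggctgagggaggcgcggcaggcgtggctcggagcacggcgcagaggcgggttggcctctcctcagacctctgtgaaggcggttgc

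These 6 windows held from 52.7% to 72.7% G+C. All 6 held at least 1 GC box, and Anapc4 held 7. The NF-Y box was present in 4 of them and the ETS core in 2, Anapc4 and Srek1. None held a TATA box, the NRF1 core, TAATTA or TGACGTCA. Over all 267 promoter windows under lost regions, 72.7% held a GC box, 35.2% an NF-Y box and 42.7% an ETS core.

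The lists differed in length and in kind before any region was compared. The E12.5 lists held 26584, 50361 and 19139 peaks and the E10.5 lists 16057, 19095 and 14886. Median peak width was 98 to 222 bp at E12.5 and 182 to 320 bp at E10.5, and the median −log10 q was 2.80 to 2.94 at E12.5 and 3.10 to 3.45 at E10.5. The files hold no read counts, so the depth behind a call is unknown, and a region without a call was not shown to be closed. As a check of the tissue, 4 of 12 mesenchyme markers (Cdh2, Sox9, Twist1 and Vim) had a region within 1 kb of their start that all 6 lists called. None of the endothelial, myogenic, neuronal and glial, blood or pericyte markers did. In a bulk sample, more cells of a type cannot be told apart from more open chromatin per cell.

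Peaks lay less often at gene starts at E12.5 than at E10.5. To take out list length, each list was cut to its 14886 strongest peaks, the length of the shortest list. In these lists 20.2%, 29.5% and 35.7% of peaks lay within 1 kb of the start of a protein-coding gene in E12.5 samples 1, 2 and 3, against 47.6%, 48.1% and 42.9% in E10.5 samples 1, 2 and 3. The stages did not overlap, and E12.5 sample 3 came closest to the E10.5 lists. The mean share was 28.4% ± 7.79 at E12.5 and 46.2% ± 2.88 at E10.5 (SD, n = 3 each), a difference of -17.8 percentage points. The two-sided exact permutation test gave p = 0.1, the smallest value that 3 lists against 3 can give, so the design could not pass 0.05. Without E12.5 sample 3 the difference was -21.4 points, and without E12.5 sample 1 it was -13.7 points.

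**Figure D1:**
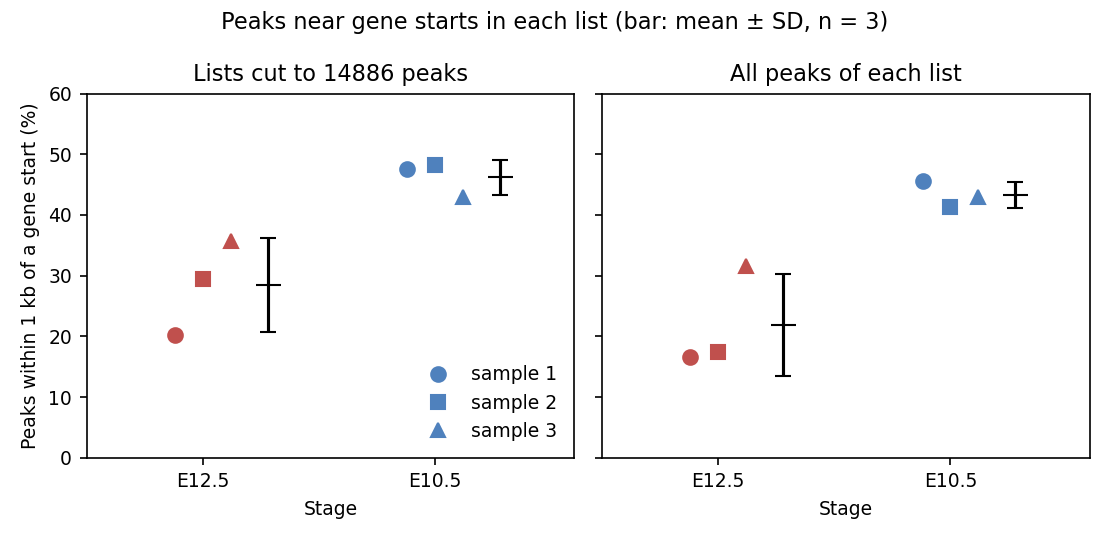
Share of peaks within 1 kb of a gene start (y axis, percent) in each E12.5 and E10.5 list, with lists cut to 14886 peaks (left) and with all peaks (right). Symbols are samples and the bar is the mean with its SD (n = 3). The 3 E12.5 lists lie between 20.2% and 35.7% at equal length, below the 3 E10.5 lists at 42.9% to 48.1%.

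Peaks far from genes showed the opposite order. Those over 100 kb from any protein-coding gene made up 7.39% ± 1.85 of the equal-length lists at E12.5 and 4.46% ± 0.261 at E10.5 (SD, n = 3 each). The difference was 2.93 percentage points, and the exact permutation test, the second of 2 such tests, again gave p = 0.1 (Benjamini-Hochberg adjusted p = 0.1 for both). Peaks inside genes but away from a start made up 36.3% ± 2.29 at E12.5 and 27.5% ± 1.03 at E10.5.

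Gained regions were 0.621% of all regions and lost regions 0.404%. Long lists call more regions, so each count was set beside the number expected when every list has its own calling odds and every region keeps its own number of calling lists. The 565 gained regions were 0.893 times the 632.4 expected. The 367 lost regions were 6.98 times the 52.5 expected. The 3-of-3 rule made the gained count depend on E12.5 sample 3, without which 5040 regions were gained, 1.42 times the number expected. Without E12.5 samples 1 or 2 there were 2323 or 861 gained regions. Lost regions numbered 436 to 987 with any 1 list left out, and with an E10.5 list left out they were 2.05 to 2.28 times the number expected.

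The number expected for lost regions depended on how list odds were fitted. The E12.5 lists call promoters less often relative to their length, and with separate odds for regions near a start and elsewhere the lost regions were 2.66 times the 138.0 expected, while the gained regions were 0.950 times the 594.6 expected. Near a start there were 56 gained regions against 33.7 expected and 293 lost regions against 117.4 expected. Elsewhere there were 509 gained regions against 560.9 expected and 74 lost regions against 20.6 expected. Lost regions thus exceeded their expected number in both classes, and gained regions did so near starts.

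Gained regions were mostly distal and lost regions mostly promoters. Within 1 kb of a gene start lay 56 of the 565 gained regions (9.91%) and 293 of the 367 lost regions (79.8%). The median distance from summit to start was 20.1 kb for gained regions (quartiles 5.38 and 59.5 kb, farthest 643.8 kb) and 147 bp for lost regions (quartiles 64 and 521 bp). Of the gained regions 47.3% lay inside a gene, 12.6% outside but within 10 kb, 22.5% at 10 to 100 kb and 7.79% farther out. For lost regions these shares were 10.1%, 3.27%, 5.99% and 0.817%. The annotation used does not separate exons, introns and untranslated regions.

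**Figure D2:**
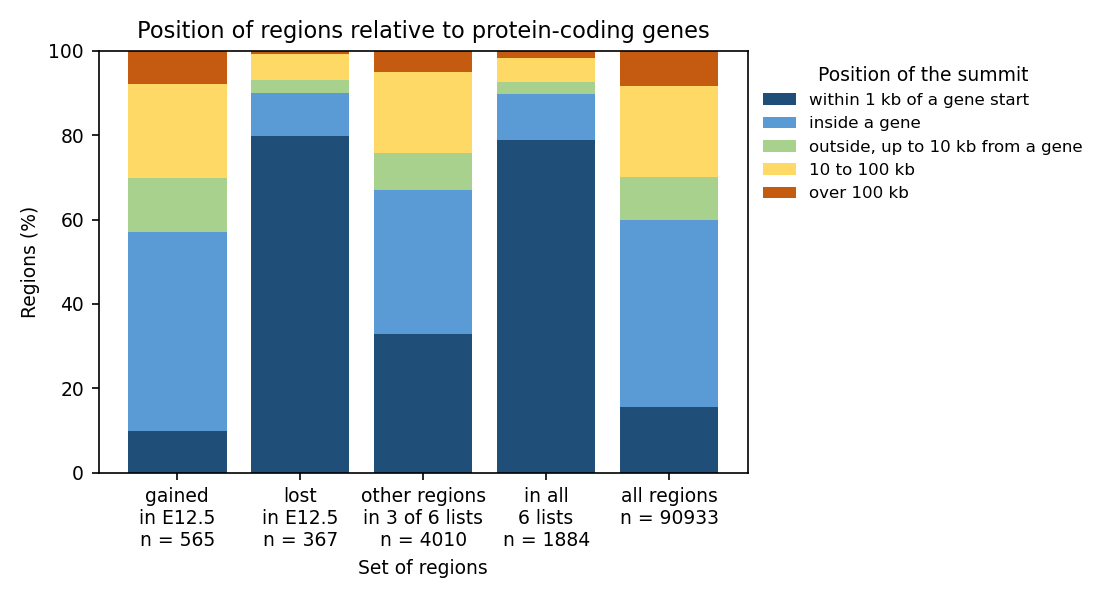
Share of regions (y axis, percent) by position of the summit relative to protein-coding genes, for gained regions, lost regions, other regions called by 3 of the 6 lists, regions called by all 6 lists, and all regions. Gained regions (9.91% near a start) lie close to all regions (15.6%), and lost regions (79.8%) lie close to the regions called by all 6 lists (78.8%).

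Lost regions lay near starts about as often as all regions called by the 3 E10.5 lists, and gained regions did so less often than all regions called by the 3 E12.5 lists. Of the 90933 regions 15.6% lay near a start, with a median distance of 19.8 kb, and most of these regions were called by 1 list, so that they could belong to neither set. The share was 78.8% for the 1884 regions that every list called. Among regions called by all 3 E10.5 lists the share near a start was 79.8%, 79.8%, 78.6% and 78.8% for those called by 0, 1, 2 and 3 E12.5 lists. These shares lay close together. Among regions called by all 3 E12.5 lists the share near a start was 9.91%, 21.7%, 39.6% and 78.8% for those called by 0, 1, 2 and 3 E10.5 lists. Among regions called by no E10.5 list it was 6.60%, 6.69% and 9.91% for those called by 1, 2 and 3 E12.5 lists. A distal position was thus shared by regions without an E10.5 call and was not particular to the gained ones.

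Counted from the base and not corrected for list odds, gained regions differed by position and lost regions hardly did. Of the regions called by all 3 E12.5 lists, 56 of 1908 near a start (2.94%) and 509 of 1718 elsewhere (29.6%) had no E10.5 call. Of the regions called by all 3 E10.5 lists, 293 of 3703 near a start (7.91%) and 74 of 984 elsewhere (7.52%) had no E12.5 call. With separate list odds by class, 560.9 gained regions were expected elsewhere and 33.7 near a start. The 509 observed elsewhere thus lay below the expected number and the 56 near a start above it. For lost regions 20.6 were expected elsewhere and 117.4 near a start, both below the number observed.

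The raw shares behaved alike list by list, again without correction for list odds. Regions called by all 3 E10.5 lists were called again in 51.3%, 83.3% and 71.9% of cases near a start by E12.5 samples 1, 2 and 3, and in 50.9%, 86.0% and 71.6% of cases elsewhere. Regions called by all 3 E12.5 lists were called again near a start in 88.2%, 91.9% and 85.6% of cases by E10.5 samples 1, 2 and 3, but elsewhere in 44.8%, 49.3% and 44.7% of cases. These shares describe regions of the same lists that defined the sets and carry no test.

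Weak regions were lost and gained more often than strong ones. Of regions called by all 3 E12.5 lists, 38.2% had no E10.5 call where their mean percentile was 25 to 50 and 1.22% where it was 90 to 100. Of regions called by all 3 E10.5 lists, 18.6% had no E12.5 call at percentiles 25 to 50 and 1.12% at percentiles 90 to 100. At percentiles 50 to 75, gained regions were 3.67% of 627 regions near a start and 32.4% of 802 elsewhere, and lost regions were 12.5% of 1206 near a start and 7.24% of 456 elsewhere. At equal strength lost regions were thus more frequent near starts up to percentile 90. The bins below percentile 25 held 10 to 37 regions.

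**Figure D3:**
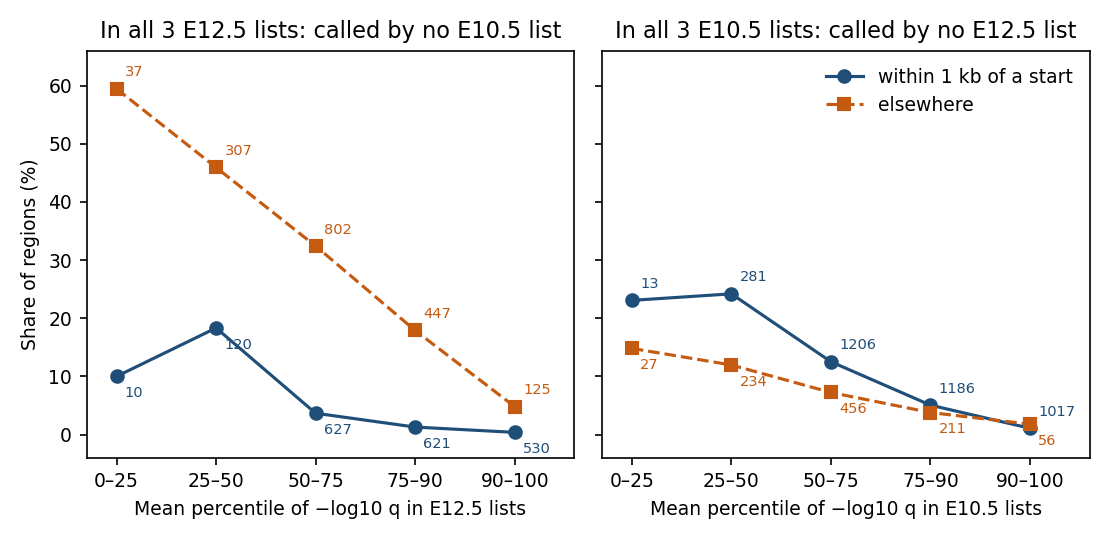
Share of regions (y axis, percent) that the other stage never called, by mean percentile of −log10 q, for regions called by all 3 E12.5 lists (left) and all 3 E10.5 lists (right). Numbers beside points are regions per bin, lines separate regions within 1 kb of a start from the rest. At percentiles 50 to 75 the left panel has 3.67% near a start and 32.4% elsewhere, and the right panel 12.5% and 7.24%.

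Within their lists the members were of middling strength. Gained regions had a median −log10 q of 3.39, 3.77 and 2.84 in E12.5 samples 1, 2 and 3, and lost regions 3.98, 4.55 and 3.57 in E10.5 samples 1, 2 and 3. Regions called by all 6 lists had 4.21, 6.75 and 4.74 in the E12.5 samples and 6.22, 8.18 and 6.14 in the E10.5 samples. Gained regions were 390 bp wide and lost regions 503 bp wide at the median, against 955 bp for regions called by all 6 lists. An E10.5 peak lay within 1 kb of 89 gained regions (15.8%) without touching them, and an E12.5 peak lay that close to 72 lost regions (19.6%).

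The highest-ranked lost regions lay, with 1 exception among 10, at gene starts. The authors' fold enrichment over the caller's background is given for E10.5 samples 1, 2 and 3, and no E12.5 list called any of these regions. Rank 1 was the promoter of Ppm1k, whose mitochondrial phosphatase switches on the breakdown of branched-chain amino acids, on chr6:57535367-57535917 (mm10), with folds of 5.50, 3.98 and 4.00. Rank 2 was the promoter of Ckap2l, a mitotic spindle protein gene, on chr2:129296833-129297501, with folds of 5.17, 4.07 and 3.42. Both summits lay under 150 bp from the nearest gene start. From the starts of the windows printed above they lay at -133 and -150 bp, where a negative value is upstream.

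Hook1, whose product links cargo to dynein, followed on chr4:95966975-95967645 with folds of 5.33, 4.61 and 3.25. Anapc4, a subunit of the anaphase-promoting complex that drives exit from mitosis, lay on chr5:52833801-52834353 with folds of 4.20, 3.98 and 4.17. Srek1, a splicing regulator, lay on chr13:103774009-103774673 with folds of 4.85, 3.71 and 3.33. Their summits were 5, 60 and 82 bp from the nearest gene start, inside or beside the promoter windows printed above. The Hook1 window belongs to another start of the gene, and the summit lay at -203 bp from it.

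Tmx4, a thioredoxin-related protein of the endoplasmic reticulum, had folds of 4.69, 4.43 and 3.17 on chr2:134643677-134644318. Slc25a30, a mitochondrial carrier, had folds of 4.45, 4.10 and 3.17 on chr14:75786654-75787182. Acbd5, a peroxisomal membrane protein, had folds of 4.36, 3.53 and 3.67 on chr2:23068693-23069484. Gdi2, a regulator of Rab GTPases in membrane traffic, had folds of 3.86, 4.01 and 3.67 on chr13:3537601-3538665. In these 9 regions the fold at E10.5 sample 1 was 3.86 to 5.50 and at E10.5 sample 3 it was 3.17 to 4.17.

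Genes with more than 1 lost region were few. The 367 lost regions had 362 nearest genes within 100 kb, which was 2.25% of the 16086 genes with any region in reach, and 2 genes had a pair. Gdi2 had its promoter and a second region 59.4 kb away on chr13:3478013-3478645. Phax, an adaptor for nuclear export of small nuclear RNA, had neighbouring regions 5 and 368 bp from its start on chr18:56562371-56562649 and chr18:56561994-56562232.

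Among the 362 genes with a lost region, 13 stood on the lists of pathway and marker genes. Etv1, an ETS factor induced by FGF signalling, lost a region 1.33 kb from its start on chr12:38778647-38779032, with folds of 4.04, 3.16 and 3.42. Meis1, a TALE homeodomain factor, lost a region 7.65 kb from its start on chr11:19026785-19027489, with folds of 4.36, 3.07 and 2.75.

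Twist2, a bHLH factor of mesenchyme, lost a region 33.0 kb from the gene on chr1:91880822-91881099. Tbx15, a T-box factor of craniofacial and limb mesenchyme, lost one inside the gene on chr3:99253859-99254169, with folds of 2.51, 2.22 and 2.31, the lowest ranked of all 367. Foxl2 and Rpl30 lost regions within 1 kb of their starts, and Elavl4 lost one 86 bp from a start. Col9a1, Mef2c, Boc and Col26a1 each had a lost region over 1 kb from their starts. Patterning factors had 4 genes with a lost region, Foxl2, Meis1 and Tbx15 among them, of 34 with any region, and 1 with a gained region (Foxc1). Of all genes with a region within 100 kb, 2.25% had a lost and 2.98% a gained one, and the counts carry no test.

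The gained regions with the highest ranks were mostly away from promoters. Their folds are given for E12.5 samples 1, 2 and 3, and no E10.5 list called them. Ranks 1 and 3 lay near a start. Rank 1 was 14 bp from a start of Foxp2, a forkhead factor gene, on chr6:14901317-14901836, with folds of 5.03, 3.92 and 4.63. Rank 2 lay inside Tph2, a serotonin synthesis gene, 13.9 kb from its start on chr10:115170829-115171242, with folds of 4.81, 3.92 and 3.65. Rank 3 lay inside the imprinted Gnas locus, which encodes the stimulatory G protein alpha subunit, 693 bp from one of its starts on chr2:174330547-174330884, with folds of 4.02, 3.02 and 3.38.

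Rank 4 had folds of 5.73, 4.12 and 3.49 on chr15:86945778-86946190. Its nearest gene, Tbc1d22a, was 447.5 kb away, beyond the distance at which a gene was assigned. Ranks 5 and 6 lay 32.8 kb from Phb, a prohibitin gene, on chr11:95713451-95714152, and 19.9 kb from Zcrb1, a gene for a protein of the minor spliceosome, on chr15:93366098-93366528. Rank 7 lay 1.45 kb outside Npas4, an activity-induced bHLH factor, on chr19:4982706-4983071, with folds of 4.62, 2.90 and 3.12. Ranks 8 to 10 lay 17.0 kb from Tdrd9, inside Col26a1 and inside Ccdc141.

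The gained regions had 480 nearest genes within 100 kb, 2.98% of the 16086, and 16 genes had more than 1, where 2 genes had more than 1 lost region. Cdh4, which encodes R-cadherin, had 3, on chr2:179812911-179813326, chr2:179903081-179903347 and chr2:179805818-179806102. The first had folds of 3.58, 2.41 and 2.60 in the 3 E12.5 samples, the second 3.90, 2.49 and 2.16, and the third 3.10, 2.32 and 2.35. Ctdspl, Phyhipl, Sh3rf1, Scube2, Rasgef1c, Ppp2r5c, Csmd2, Pde6a and Kcnk12 had 2 each by the nearest boundary. Of the Phyhipl regions 1 lay inside another gene, Fam13c, and 42.2 kb from Phyhipl. For 1 Scube2 region, outside the gene, the nearest start was that of Nrip3. For 1 region each inside Ctdspl and Rasgef1c the nearest starts were those of Vill and Rnf130. Sh3rf1, an adaptor of JNK signalling, also had a lost region on chr8:61292712-61293328, between its gained regions on chr8:61267217-61267583 and chr8:61373993-61374316.

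Signalling and adhesion genes with a gained region included Bmp6 and Bmp7, ligands of the BMP pathway, and, by the nearest boundary, Acvr1, a receptor of it. The Bmp6 region lay inside the gene on chr13:38401146-38401538 with folds of 3.51, 3.31 and 2.79. The Bmp7 region lay inside the gene, 4.96 kb from its start, on chr2:172872866-172873233 with folds of 2.96, 2.64 and 2.21. The region assigned to Acvr1 lay on chr2:58589905-58590432 with folds of 3.79, 3.84 and 2.79, inside another gene, Upp2, and 23.3 kb from Acvr1. BMP and TGF-beta genes had 3 members with a gained region and 0 with a lost one, of 28 with any region. Of all genes with a region within 100 kb, 2.98% had a gained and 2.25% a lost one, and the counts carry no test.

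Retinoic acid receptor genes Rarg and Rarb each had a gained region, that of Rarg 316 bp from its start on chr15:102257788-102258015. Fgf9, a ligand of FGF receptors, and Fzd2, a WNT receptor, had gained regions 25.9 and 9.00 kb from the gene. Foxc1, a forkhead factor of craniofacial mesenchyme, had one 27.98 kb away on chr13:31778385-31778772, with folds of 4.52, 2.94 and 2.62. Sox6, a factor of cartilage formation, had one on chr7:115465125-115465332, and Runx1 had one 47.1 kb from its start.

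Matrix genes Col26a1, Col6a2 and Col5a2, adhesion genes Cdh4, Ajap1 and Nectin1, and axon guidance genes Unc5a and Efnb2 completed the larger groups. Of the Unc5a regions 1 lay inside a neighbouring gene, Hk3, and the other 69.3 kb from Unc5a. Cyclin gene Ccnd2 had a gained region 60 bp from its start on chr6:127152093-127152298, and Hoxc4 one 212 bp from a start. Elavl4, a neuronal marker, and Grhl2, an epithelial marker, had one each. Rps24 also had one. Over the 489 listed genes with a region, 24 (4.91%) had a gained region and 13 (2.66%) a lost one, against 2.98% and 2.25% of all genes. These shares carry no test. They were not corrected for the number of regions per gene, and a gene with more regions can more easily have a gained one.

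Most lists had 0 to 2 genes with a member region. Neural crest factors had 0 gained and 1 lost of 22, FGF genes 1 and 1 of 20, WNT genes 1 and 0 of 31, hedgehog genes 0 and 1 of 14, and retinoic acid genes 2 and 0 of 17. Odontogenic factors, early timing genes and nuclear respiratory chain genes had 0 of either, of 13, 11 and 29 genes. Matrix genes had 3 gained and 1 lost of 29, adhesion genes 3 and 0 of 25, and axon guidance genes 2 and 0 of 26. Osteogenic and chondrogenic genes had 1 gained and 1 lost each, of 16 and 20, and Hox genes 1 and 0 of 22. Cell cycle genes had 1 and 0 of 31, splicing factors 0 and 1 of 28, and ribosomal protein genes 1 and 1 of 29.

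Markers of other cell types were also near some members. Neuronal and glial markers had 2 genes with a gained region and 1 with a lost region of 12, epithelial markers 1 and 0 of 15, and blood markers 1 and 0 of 9 (Runx1). Endothelial, myogenic, pericyte and mesenchyme markers had 0 of either. Summed over the 8 epithelial markers tested, 17, 39 and 10 regions were called in E12.5 samples 1, 2 and 3 against 16.9, 34.0 and 11.8 expected from list odds, and 9, 12 and 6 in E10.5 samples 1, 2 and 3 against 9.56, 12.1 and 8.56 expected. Blood markers had 19, 30 and 10 calls in the E12.5 samples against 14.2, 28.03 and 10.0 expected, and 4, 6 and 9 in the E10.5 samples against 8.16, 10.2 and 7.34 expected. The part of other cells in the gained and lost regions was not tested.

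The E11.5 lists, which had no part in choosing the members, called lost regions far more often than gained ones. They held 5682, 24907 and 41457 peaks. E11.5 samples 1, 2 and 3 called 0.708%, 5.49% and 43.0% of the gained regions and 49.9%, 85.8% and 88.6% of the lost regions. Of the 4010 other regions that 3 of the 6 lists called, they called 10.1%, 31.0% and 56.1%. In each E11.5 list the lost regions lay above these other regions and the gained regions below them.

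The sets differ in position, so the shares were also taken by distance. Near a start, E11.5 samples 1, 2 and 3 called 5.36%, 37.5% and 60.7% of gained regions, 55.6%, 94.5% and 95.2% of lost regions, and 27.4%, 74.8% and 82.0% of the other regions. Elsewhere they called 0.196%, 1.96% and 41.1% of gained regions, 27.03%, 51.4% and 62.2% of lost regions, and 1.67%, 9.48% and 43.3% of the others. The order held in both classes and in all 3 lists. Strength was not matched. Lost regions had median percentiles of 66.1, 68.95 and 61.4 in E10.5 samples 1, 2 and 3. The other regions had 48.2, 51.8 and 46.5 in the same samples. Gained regions had 60.9, 71.3 and 50.9 in E12.5 samples 1, 2 and 3. There the other regions had 60.4, 66.8 and 54.8. The E11.5 lists varied widely, since 81.6%, 46.5% and 34.3% of their peaks lay near a start.

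**Figure D4:**
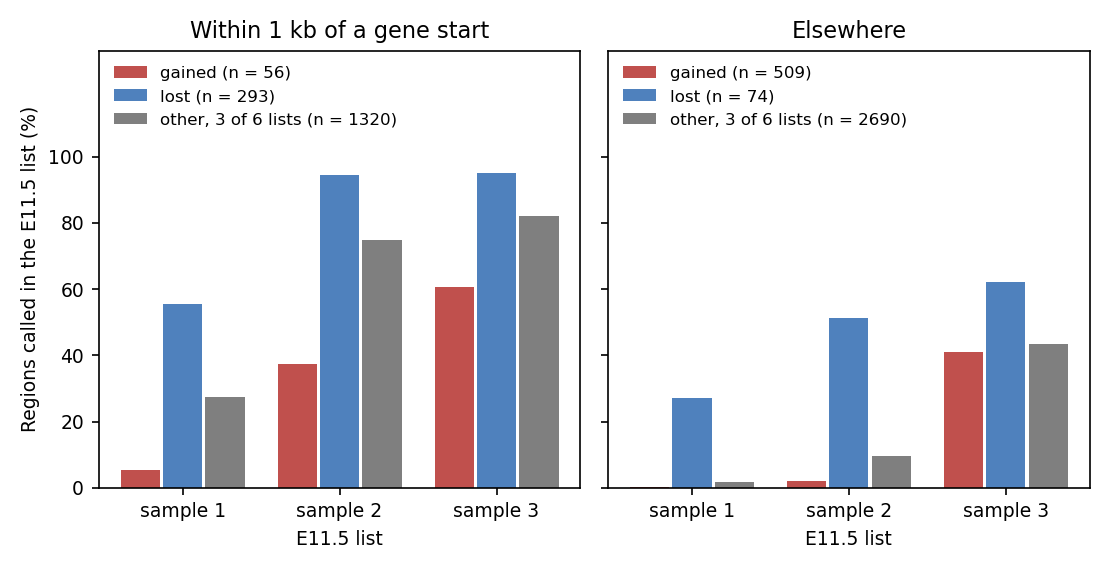
Share of gained, lost and other regions called by 3 of the 6 lists (y axis, percent) that each E11.5 list called, for regions within 1 kb of a gene start (left) and elsewhere (right). In every E11.5 list the lost bar is the highest and the gained bar the lowest. E11.5 sample 3 called 41.1% of gained regions elsewhere, where samples 1 and 2 called 0.196% and 1.96%.

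All 3 E11.5 lists called 3 of the 565 gained and 183 of the 367 lost regions, and no E11.5 list called 318 gained and 33 lost regions. The 9 lost promoters described above, from Ppm1k to Gdi2, were each called by all 3 E11.5 lists. The strongest gained regions were called by E11.5 sample 3 only, except those at Foxp2 and Gnas, which sample 2 called as well. Of the developmental genes, the lost regions of Etv1, Col9a1, Elavl4 and Mef2c were called by all 3 E11.5 lists, and that of Tbx15 by none.

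The promoters of lost regions were as rich in CpG as those of regions that every list called. Lost regions overlapped 267 RefSeq promoter windows of 241 genes, with a median CpG observed over expected ratio of 0.832 and a median G+C of 62.3%. For the 1571 windows of regions called by all 6 lists these were 0.829 and 65.3%. Over all 21045 promoter windows they were 0.574 and 56.7%. Gained regions overlapped 13 windows, with a ratio of 0.712, too few for shares to be compared.

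The ETS core was more frequent in promoters of lost regions. It occurred in 114 of their 267 windows (42.7%), against 27.1% of the windows of regions called by all 6 lists, 30.1% of those of other regions called by 3 of the 6 lists, and 18.9% of all windows. Among regions called by all 3 E10.5 lists its share was 42.7%, 34.7%, 30.3% and 27.1% for those called by 0, 1, 2 and 3 E12.5 lists. In windows with a CpG ratio of at least 0.6 the shares were 43.4%, 37.5%, 32.2% and 28.7%.

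The order was less even at fixed strength. At percentiles 75 to 90 in the E10.5 lists the shares were 50.0%, 37.4%, 30.7% and 26.4% for 0, 1, 2 and 3 E12.5 lists, and at percentiles 50 to 75 they were 40.3%, 34.2%, 28.8% and 33.3%. The first value was the highest in both bins. The first groups held 60 and 134 windows, and several windows can share a region.

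Over all strengths the NF-Y box and the GC box ran the other way. The NF-Y box occurred in 35.2%, 38.9%, 44.2% and 47.9% of windows for regions called by 0, 1, 2 and 3 E12.5 lists, beside 38.5% of all windows. The GC box occurred in 72.7%, 73.0%, 78.3% and 79.2%, beside 46.7% of all windows. At percentiles 75 to 90 the NF-Y shares were 36.7%, 43.0%, 46.8% and 45.3%, and the GC box shares 75%, 76.5%, 77.7% and 81.3%. At percentiles 50 to 75 neither kept its order, with 35.1%, 38.4%, 36.5% and 31.7% for the NF-Y box and 73.1%, 70.6%, 77.7% and 72.7% for the GC box. The TATA box occurred in 4.87% of windows of lost regions, 3.82% of those of regions called by all 6 lists and 12.7% of all windows.

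**Figure D5:**
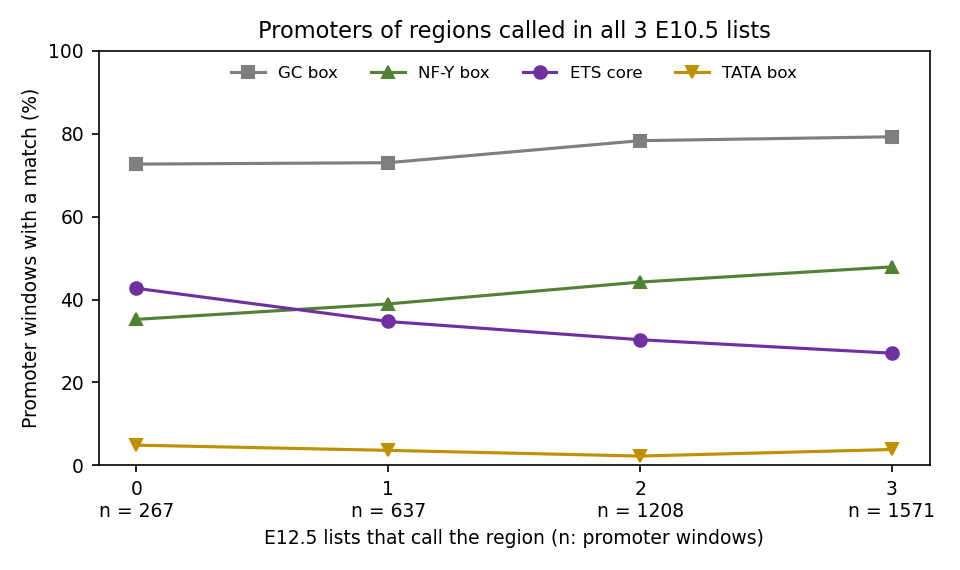
Share of promoter windows with a match (y axis, percent) for the GC box, NF-Y box, ETS core and TATA box, by the number of E12.5 lists that call the region (x axis), among regions called by all 3 E10.5 lists. The ETS core has 42.7% at 0 lists and 27.1% at 3 lists, and the NF-Y box 35.2% at 0 lists and 47.9% at 3 lists.

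The other 4 motifs were counted in the same way. CANNTG occurred in 59.6% of windows of lost regions, 54.9% of those called by all 6 lists and 69.0% of all. GCATGCGC occurred in 6.74%, 5.28% and 3.54%, TGACGTCA in 4.49%, 4.01% and 2.26%, and TAATTA in 1.498%, 0.573% and 4.47% of the same sets. TAATTA was rare in both sets, with 4 windows of lost regions and 9 of regions called by all 6 lists. A match is a description of letters in the window, and overlaps between motifs were allowed.

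The summits of lost regions and of regions called by all 6 lists spread about as widely around the start. Relative to the nearest promoter start, with the direction of the gene, the median summit position was -14 bp for 221 lost regions (quartiles -94 and 115 bp) and -58 bp for 1185 regions called by all 6 lists (quartiles -147 and 57 bp), where a negative value is upstream. It was 15 bp for other regions called by 3 of the 6 lists and -23.5 bp for all regions at promoters. Upstream of the start lay 52.0% of the summits of lost regions and 65.0% of those of regions called by all 6 lists. A pair of gene starts within 1 kb was found for 11.3% of lost regions near a start and 17.98% of such regions called by all 6 lists.

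No single gene passed a test of its number of called regions. For each of 5778 genes with at least 5 regions called by 1 to 5 lists, calls per list minus those expected from list odds were compared with limma. After Benjamini-Hochberg adjustment 0 genes had more and 0 had fewer called regions at E12.5 (0% of 5778 in either direction, smallest adjusted p = 0.370). Without adjustment 402 of the 5778 genes had p under 0.05, of which 167 had more and 235 fewer calls. The median difference over all genes was 0.101 SD units. The split of unadjusted genes depended on the setting. In equal-length lists 164 had more and 87 fewer calls, of 2971 tested. With list odds by distance class 117 had more and 246 fewer, of 5778 tested.

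The counts of genes with a gained or lost region include that region, so their p-values are not independent of how the genes were chosen and support nothing, and none passed. Ajap1, an adhesion gene, had 13, 21 and 8 called regions in E12.5 samples 1, 2 and 3 against 1, 2 and 1 in E10.5 samples 1, 2 and 3, where list odds gave 5.56 to 18.1 and 3.86 to 5.71 (limma adjusted p = 0.370). Bmp7 had 7, 10 and 4 in the E12.5 samples against 0, 0 and 0 in the E10.5 samples, with an adjusted p of 0.372 by limma. For Bmp7 list odds gave 2.46 to 8.65 in the E12.5 samples and 1.70 to 2.53 in the E10.5 samples. Longer lists call more regions, so raw counts alone do not compare the stages.

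Meis1 had 0, 2 and 1 called regions in the E12.5 samples against 1, 3 and 4 in the E10.5 samples (limma adjusted p = 0.372). Tbx15 had 0, 1 and 0 in the E12.5 samples against 1, 3 and 2 in the E10.5 samples (limma adjusted p = 0.372). The Meis1 counts overlapped between stages and those of Tbx15 met at 1. For Meis1 list odds gave 1.44 to 3.86 in the E12.5 samples and 1.04 to 1.47 in the E10.5 samples. For Tbx15 they gave 0.882 to 2.60 in the E12.5 samples and 0.630 to 0.904 in the E10.5 samples. Cdh4 had 16, 17 and 8 in the E12.5 samples against 3, 7 and 1 in the E10.5 samples (limma adjusted p = 0.693). For Cdh4 list odds gave 9.62, 19.1 and 6.60 in E12.5 samples 1, 2 and 3. In E10.5 samples 1, 2 and 3 they gave 5.27, 6.77 and 4.68. E12.5 sample 2 thus lay below its expected number and E10.5 sample 2 above it.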

How the data were processed

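Nuclei of mesenchymal cells were tagged with a transposase and sequenced in pairs, per the labels' protocols. Per the submitters' processing notes the tools were Bowtie2, MACS2 and deepTools 3.3.1 and the build mm10, and the file names tell that peaks were called on read pairs and blacklisted regions removed. The authors deposited 1 peak list per sample, with the fold enrichment (a ratio) and the −log10 of p and q per peak. These are the peak's own values and serve only to rank and describe peaks within a list. The lists hold no counts, so depth is unknown.

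Distances run from the summit to the nearest start of a RefSeq protein-coding gene (GRCm38.p6, 21631 genes). Strand was known for 17274 of them, and for the rest both ends counted as starts. Genes were assigned by the nearest gene boundary within 100 kb. Expected numbers come from a logit model with 1 term per list and 1 per region, conditional on the number of calling lists. List odds were fitted with SciPy 1.17.1, and the gene test used limma 3.58.1. Names follow 1 rule: the genes of the 10 highest ranked regions each way, genes with several members, list genes with a member, and genes passing the test. Some results named by the rule are not reported here. The comparison and the gene lists were chosen with earlier results of these data known. Alternatives covered the peak threshold, list length, overlap, distances, expected numbers, each list left out and a replicate block.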

Additional observations from a re-analysis of the deposited data

How the results depend on the processing

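The 2 shares of equal-length lists kept their direction under every alternative run, with the near-start difference between -33.7 (only peaks with a −log10 q of at least 5) and -13.7 percentage points (without E12.5 sample 1). With the sample number as a replicate block, the exact sign-flip test over 3 pairs gave -17.8 points with p = 0.25, the smallest it can give, and 2.93 points with p = 0.25 for peaks over 100 kb. After list odds were taken out, same-numbered samples did not deviate together (correlations of -0.0169, 0.00296 and -0.0341). Differently numbered samples had correlations of -0.0394 to 0.0556. With 3 lists per stage this cannot exclude a pairing, and the labels do not say what the numbers mean. The block left the gene test at 0 calls. The sizes of both sets depended on the lists. The 565 gained regions became 30 at a −log10 q of at least 5 and 178 in equal-length lists, of which 162 overlapped the members. Leaving out 1 list gave 719 to 5040 gained regions, 5040 without E12.5 sample 3, and 0.747 to 1.42 times the expected number, 1.42 again without E12.5 sample 3. The 367 lost regions became 675 in equal-length lists (338 overlapped the members), and 436 to 987 with 1 list left out. Lost regions over the expected number moved from 6.98 to 4.01 in equal-length lists, to 2.66 with odds by distance class, and to 2.05 to 7.15 with 1 list left out, where each E10.5 list left out gave 2.05 to 2.28. Leaving out 1 list kept 4.94% to 14.5% of gained and 60.1% to 81.7% of lost regions near a start. The gene test called 2 genes with more regions (Dok5 and Gnas) among the 80 tested at a −log10 q of at least 5, and 0 in all other settings. The cause of these shifts was not tested. Measuring to the nearest gene boundary, an alternative chosen after seeing the data, gave -15.6 points. Depth is unknown, so a missing call is no evidence of closed chromatin.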
